A study of Mus musculus with 8 samples.

Results

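The fibroblast growth factor (FGF) genes examined here are the ligands, the receptors, their binding partners and adaptors, and the genes that FGF signaling switches on to restrain or carry its own signal. They were chosen by gene name: every *Fgf*, *Fgfr*, *Spry*, *Spred* and *Flrt* gene in the expression table, together with *Fgfrl1*, *Dusp6*, *Etv1*, *Etv4*, *Etv5*, *Il17rd*, *Kl*, *Fgfbp1*, *Fgfbp3*, *Frs2* and *Frs3*. This gave 43 of the 20926 genes in the table. *Fgf5*, *Fgf6*, *Fgf20*, *Klb* and *Spry3* were not analysed here.

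RNA sequencing was performed on molar mesenchyme of mice at postnatal (PN) day 3, labelled C57BL/6 although the study's methods describe a mixed background, collected after the dental epithelium was removed. The 8 libraries came from 4 samples of *Ezh2fl/fl* mice, called control, and 4 of *Osr2KI-Cre;Ezh2fl/fl* mice, called mutant below. Both groups carry the floxed *Ezh2* allele, and only mutant mice carry the Cre allele, so effects of that allele and of the deletion cannot be told apart. *Ezh2* encodes the histone methyltransferase of Polycomb repressive complex 2, and Osr2-Cre is active in the dental papilla, the dental follicle and the alveolar bone, not in the epithelium. Nothing in the labels says whether a library came from 1 mouse, so the p-values measure the spread between these samples.

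FGF signaling runs in both directions between the epithelium and the mesenchyme of a tooth. Ligands bind receptor tyrosine kinases with the help of heparan sulfate, the receptors signal through FRS adaptors to the Ras-ERK cascade, and ERK activity switches on ETS transcription factors. It also switches on inhibitors such as Sprouty proteins and the ERK phosphatase DUSP6, so that levels of these genes are widely used as a readout of the pathway. In tooth development FGF3 and FGF10 are made by the dental mesenchyme and act on the epithelium, while FGF4, FGF8, FGF9 and FGF20 are made by epithelium.

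Promoter sequences are shown for 6 members whose levels are described below, because Polycomb repressive complex 2 is known to act mostly at promoters rich in CG dinucleotides. They are bases before the RefSeq transcription start on GRCm38.p6, written 5′ to 3′ along the gene's strand, with each CG in capitals.
Fgfr3, chr5:33721474-33721673, plus strand: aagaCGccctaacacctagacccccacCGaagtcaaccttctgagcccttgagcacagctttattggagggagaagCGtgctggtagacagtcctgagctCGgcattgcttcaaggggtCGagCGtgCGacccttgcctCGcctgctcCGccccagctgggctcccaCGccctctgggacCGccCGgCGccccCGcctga
Flrt3, chr2:140671477-140671726, minus strand: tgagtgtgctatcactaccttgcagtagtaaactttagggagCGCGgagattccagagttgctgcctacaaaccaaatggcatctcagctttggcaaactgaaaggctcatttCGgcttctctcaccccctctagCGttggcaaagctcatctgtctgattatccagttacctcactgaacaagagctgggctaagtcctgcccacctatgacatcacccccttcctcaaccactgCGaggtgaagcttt
Fgf11, chr11:69802281-69802530, minus strand: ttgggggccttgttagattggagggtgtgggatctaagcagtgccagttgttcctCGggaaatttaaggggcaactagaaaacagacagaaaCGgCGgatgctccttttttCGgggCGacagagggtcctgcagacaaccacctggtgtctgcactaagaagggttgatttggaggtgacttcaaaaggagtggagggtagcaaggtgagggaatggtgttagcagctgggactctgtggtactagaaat
Spry1, chr3:37639697-37639946, plus strand: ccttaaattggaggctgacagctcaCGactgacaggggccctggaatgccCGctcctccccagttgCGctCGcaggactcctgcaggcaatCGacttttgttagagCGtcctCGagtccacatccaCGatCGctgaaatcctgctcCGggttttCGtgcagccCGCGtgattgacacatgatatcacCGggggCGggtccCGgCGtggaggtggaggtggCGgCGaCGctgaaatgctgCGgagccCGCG
Spry2, chr14:105896820-105897069, minus strand: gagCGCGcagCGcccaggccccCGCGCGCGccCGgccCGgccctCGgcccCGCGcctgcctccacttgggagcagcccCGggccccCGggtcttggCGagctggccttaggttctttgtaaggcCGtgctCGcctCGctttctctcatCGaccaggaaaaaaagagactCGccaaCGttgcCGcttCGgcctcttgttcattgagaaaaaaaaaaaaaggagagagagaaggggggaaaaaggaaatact
Dusp6, chr10:99262981-99263230, plus strand: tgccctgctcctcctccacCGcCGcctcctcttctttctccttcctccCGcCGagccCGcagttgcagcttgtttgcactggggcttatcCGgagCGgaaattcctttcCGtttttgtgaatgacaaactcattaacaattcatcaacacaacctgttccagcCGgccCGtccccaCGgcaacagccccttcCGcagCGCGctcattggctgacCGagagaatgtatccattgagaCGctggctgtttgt
The windows of *Spry1* and *Spry2*, genes of Sprouty inhibitors, each held 23 CG dinucleotides in 250 bases, and that of *Dusp6* held 16. The window of *Fgfr3*, which was shortened to the 200 bases upstream of the annotated gene, held 14. The windows of *Flrt3* and *Fgf11* held 5 each. Of the other members described below as higher, *Fgf2* held 20, *Fgfr4* 15 and *Fgfbp3* 8. Of the others described as lower, *Fgf3* held 4, *Etv1* 9, *Il17rd* 10 and *Etv5* 27, while *Spry4* and *Etv4* had no window. These counts overlapped between higher and lower members. Of the 43 members 34 had a RefSeq window of 250 bases, and 21 of these (61.8%) held at least 10 CG dinucleotides, compared with 37.8% of all 32851 windows. The letters CCGGAA on either strand, the core of an ETS factor motif, were in 4 of the 34 windows (11.8%) and in 12% of all windows. None of the 6 windows shown held them.

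The values in the table are normalized values per gene with no correction for gene length. The estimated depth was 48.3 to 68.8 M reads per library, so that 1 read was worth 0.0129 to 0.019, and an amount of 3 reads was set as the limit of detection. Pearson correlations between libraries of a group were 0.976 to 0.994. *Ezh2* was at 55.0, 38.3, 39.6 and 39.0 in the controls and at 35.2, 30.1, 23.2 and 36.0 in the mutant libraries, listed here and below in the order of replicates 1 to 4, and all 4 mutant libraries were below all 4 controls. All 14 dental mesenchyme markers were above 3 reads in every library, and their summed value, most of it from *Col1a1*, was 10324 to 12557 in control and 8896 to 12329 in mutant samples. Singly, 6 of the 14 were higher and 0 were lower at an unadjusted p under 0.05, against 8.27% and 4.87% of all genes. Of these 6, 1 (*Lhx8*) was also higher at an adjusted p under 0.05, against 1.56% of all genes. The median log2 fold change of the 14 was 0.09. Markers of other tissues were present too, although the epithelium had been removed. The summed value of 7 ameloblast markers (ameloblasts are the enamel-forming epithelial cells) was 811, 2429, 15826 and 28715 in the controls and 1351, 871, 11512 and 738 in the mutant libraries. Control 3, control 4 and mutant 3 thus stand apart. The summed value of 12 epithelium markers was 2461 to 4800 in control and 2202 to 2934 in mutant samples. All 12 of these genes had a negative log2 fold change, with a median of -0.45, and 8 of them were lower at an unadjusted p under 0.05, against 4.87% of all genes. Of these, *Dsp* was also lower at an adjusted p under 0.05 (log2 fold change -0.59, adjusted p = 0.0282), against 0.512% of all genes. Odontoblast markers summed to 2411 to 3859 in control and 1758 to 3387 in mutant samples (exact permutation p = 0.0857), and 2 of 5 were lower at an unadjusted p under 0.05, against 4.87% of all genes. Endothelium markers summed to 317 to 356 and 279 to 303, which did not overlap (exact permutation p = 0.0286), and 3 of 5 were lower at an unadjusted p under 0.05, against the same 4.87%. Sums of leukocyte and osteoclast markers (224 to 827 and 204 to 733) and of Schwann cell and neuron markers (113 to 178 and 115 to 140) overlapped. No ameloblast or epithelium marker was at or below 3 reads in all libraries. In bulk tissue, fewer cells of a type and less RNA per cell cannot be told apart. The median log2 fold change was -0.40 for odontoblast, -0.24 for endothelium and -0.45 for epithelium markers, negative like those of the inhibitor, ETS factor and ERK response genes described below. The part of the epithelium was examined only by fits with its markers as a covariate, and that of the other cell types was not tested.

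**Figure D1:**
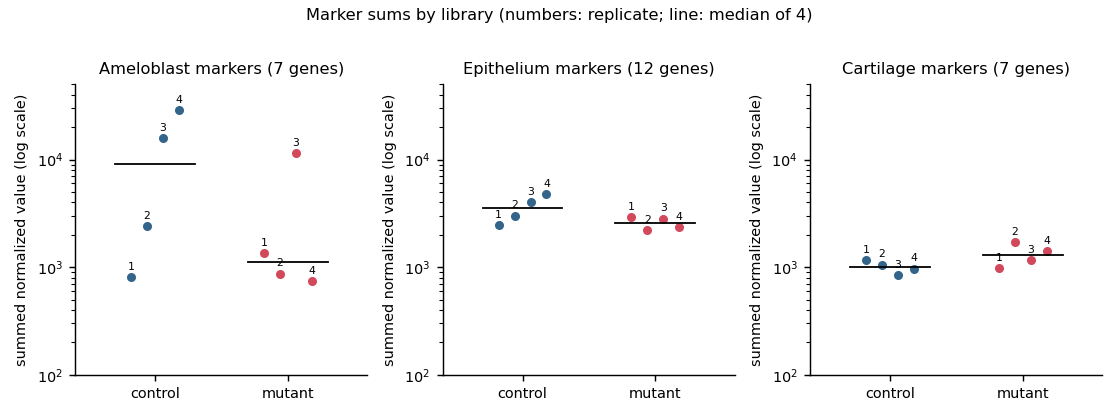
Summed normalized value, on a log axis, of ameloblast markers (7 genes), epithelium markers (12 genes) and cartilage markers (7 genes) in each library, with replicate numbers and the median of 4. Control 3, control 4 and mutant 3 hold ameloblast sums of 11512 to 28715, while the other 5 libraries hold 738 to 2429.

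*Fgfr1* was by far the most abundant member. Levels between genes were compared per kilobase of exon, on which scale *Fgfr1*, the main receptor of mesenchymal cells, had a mean of 103 over the 8 libraries. *Fgfr2* followed at 18.1, and then the inhibitor genes *Spred1* at 16.9 and *Dusp6* at 16.8, whose ranges over libraries overlapped. Next in order were *Etv5* at 13.5, *Fgfr3* at 13.3 and *Etv4* at 10.5 per kilobase. Among ligands that are secreted, *Fgf3* had the highest level, 8.01 per kilobase, followed by *Fgf1* at 3.67, *Fgf10* at 3.26 and *Fgf2* at 1.55. *Fgf4*, a ligand of epithelial signaling centers, had the lowest level of all members, and was at 0 estimated reads in every library except control 3, which held 16.

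**Figure D2:**
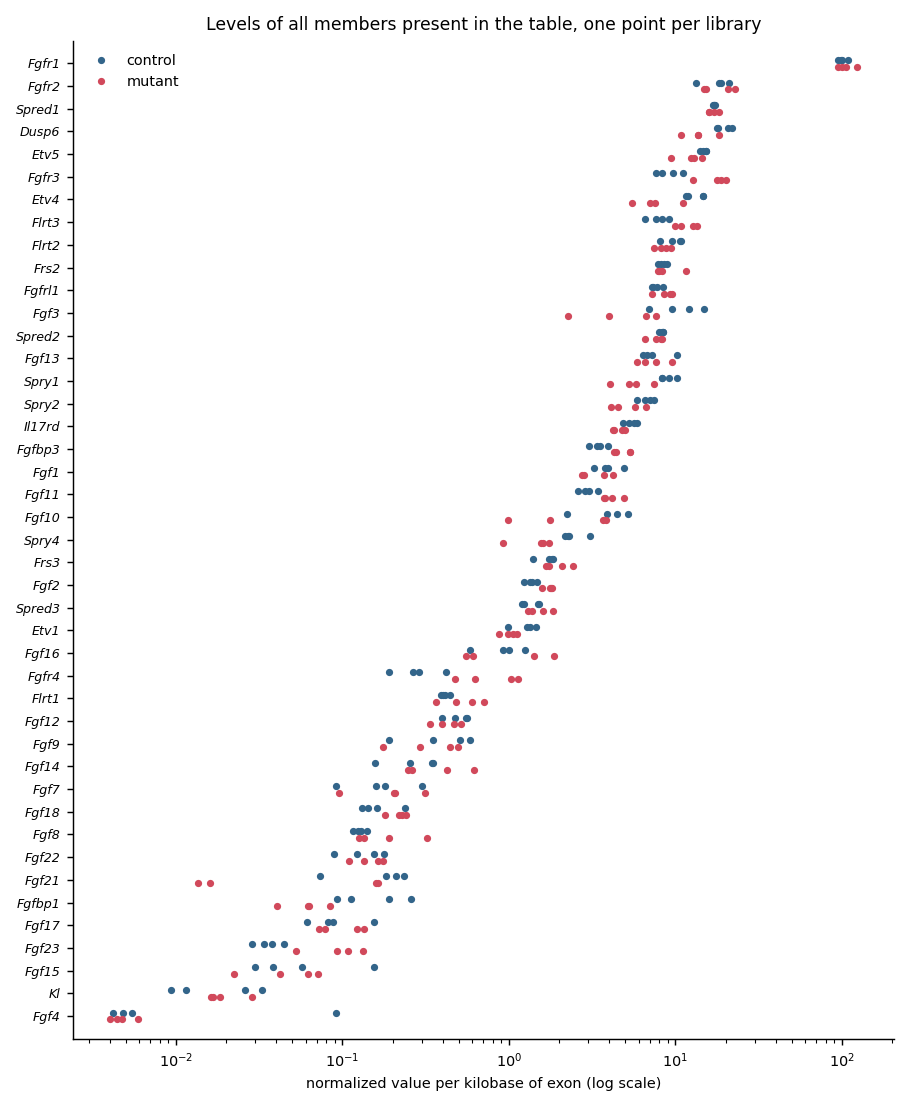
Normalized value per kilobase of exon, on a log axis, of the 43 members in each library (1 point per library, control above mutant). *Fgfr1* lies near 103, apart from every other gene, and the members that failed the filter on low values lie at the bottom.

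Of the 43 members, 32 passed the filter on low values, a value of 1 or more in 4 or more libraries, and were tested. At an adjusted p under 0.05 in limma, 1 member was higher in mutant samples, *Fgfr3*, against 1.56% of all 14854 genes tested, and 0 were lower, against 0.512%. In either direction 2.07% of all genes were called. At an unadjusted p under 0.05, 6 members were higher (18.8%, against 8.27% of all genes) and 9 were lower (28.1%, against 4.87%). Together these were 15 of 32 (46.9%), against 13.1% of all genes. The count of lower members was 5 without control 2, when 536 of all 14753 genes were lower, 5 without control 3 (459 of 14771) and 5 with the epithelium covariate (701 of 14854), compared with 724 of 14854 in the model of all libraries. Groups did not overlap in 9 members, against 8.53% of all genes, and these were 6 members that were higher (18.8%, against 5.76%) and 3 that were lower (9.38%, against 2.77%). The median log2 fold change of the 32 members was -0.03 and that of all genes was 0.01. Read by role, of 11 inhibitor and ETS factor genes 8 were lower at an unadjusted p under 0.05 and 0 were higher, whereas of 5 receptor genes 2 were higher and 0 were lower.

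**Figure D3:**
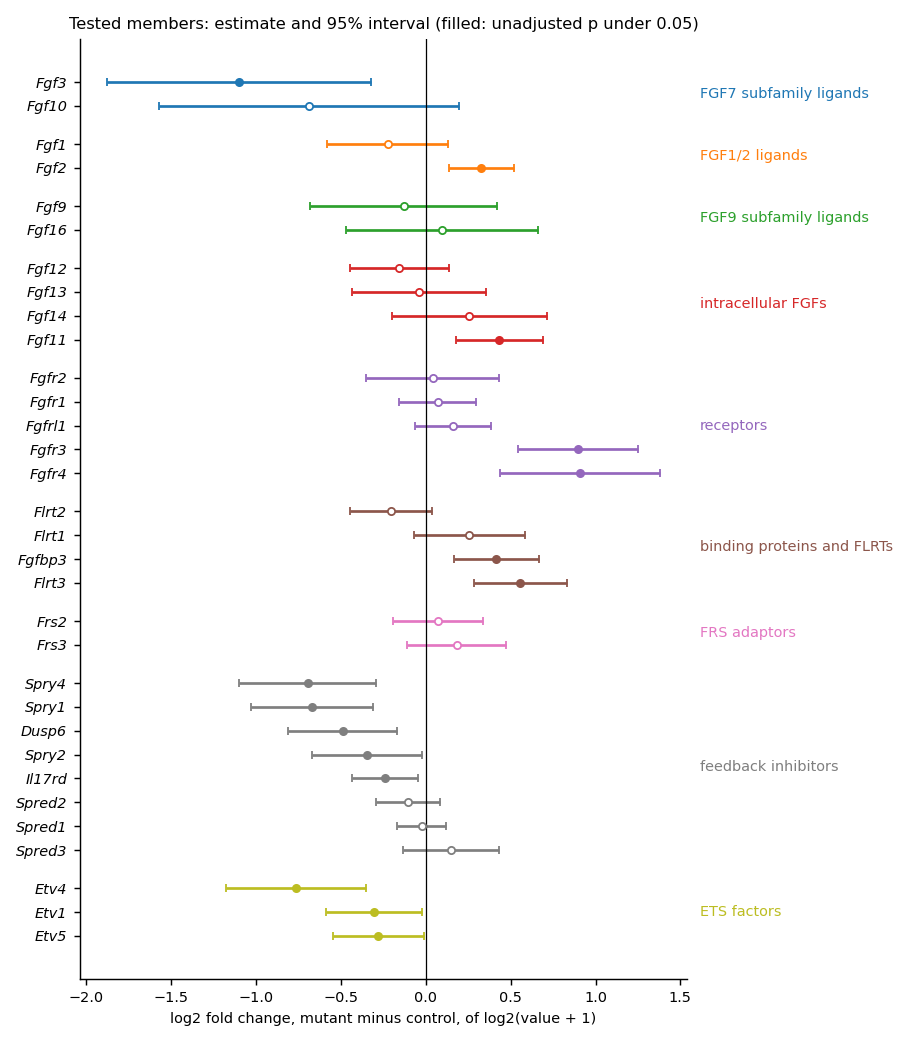
Log2 fold change (mutant minus control, of log2(value + 1)) with its 95% interval for the 32 tested members, grouped by role, where filled points have an unadjusted p under 0.05. The ETS factor genes and most inhibitor genes lie left of 0, all 5 receptor genes lie right of 0, and *Fgf3* has the lowest estimate at -1.10.

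Among the ligands, the mesenchymal gene *Fgf3* had the lowest fold change of all tested members. *Fgf3* (chr7:144838083-144844436, plus strand, GRCm38) was at 34.6, 22.2, 28.3 and 16.2 in the controls, and at 9.25, 17.8, 5.23 and 15.5 in the mutant libraries. Only control 4 lay within the range of the mutant libraries. The mean was 25.3 ± 7.92 in control and 11.9 ± 5.74 in mutant samples (SD, n = 4 each), and their ratio was 0.471. Its log2 fold change was -1.10 (SE 0.35), with an adjusted p of 0.178, and the exact two-sided permutation test gave p = 0.0571, so *Fgf3* did not pass. When the mean of 3 enamel genes (*Amelx*, *Ambn*, *Enam*) was added to the model, the log2 fold change was -1.502 and the adjusted p was 0.0179, which would pass. With the epithelium markers as a covariate instead it was -1.72, with an adjusted p of 0.237.

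*Fgf10*, which acts with *Fgf3* on the epithelium, was at 24.0, 17.9, 20.5 and 10.3 in control and at 8.11, 17.6, 4.57 and 17.0 in mutant libraries. The same pair of mutant libraries, 1 and 3, had the lowest values of both genes, and the groups overlapped. The sums of leukocyte and osteoclast markers varied among the same libraries. They were 224, 827, 316 and 438 in control and 512, 204, 733 and 215 in mutant libraries. The part of these cells in the *Fgf3* and *Fgf10* values was not tested. The log2 fold change of *Fgf10* was -0.69 (SE 0.39, adjusted p = 0.538), and the 95% interval was -1.57 to 0.20. The value depended on the model and the libraries: it was -1.15 with the enamel covariate (adjusted p = 0.0863), -1.41 with the epithelium covariate (adjusted p = 0.386), and -0.34 without mutant 3, the end of a range that reached -0.92 without control 4. *Fgf10* passed the adjusted test in none of these fits.

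*Fgf2*, a ligand without a signal peptide that is stored in the matrix, was at 9.93, 9.36, 9.10 and 8.38 in control and at 10.8, 12.3, 12.1 and 12.01 in mutant libraries. Every mutant library was above every control library, although the difference was small. The log2 fold change was 0.33 (SE 0.09) and the adjusted p was 0.101. *Fgf2* overlaps *Fgf2os* and *Nudt6* on the opposite strand, and reads of these genes could be counted together where strand was not used. The same limit holds for other members, among them *Fgfr3* (with *G630022F23Rik*), *Flrt3* (with *Macrod2*) and *Spry1* (with *Gm42922*). *Fgf1*, the closest relative of *Fgf2*, was at 17.7 to 26.7 in control and 15.04 to 22.9 in mutant samples, with a log2 fold change of -0.22 (SE 0.16, adjusted p = 0.665). *Fgf16* and *Fgf9*, of a subfamily that signals at a distance in embryonic tissues, were low and overlapped. *Fgf16* was at 1.54 ± 0.451 in control and 1.82 ± 1.05 in mutant samples, and *Fgf9* at 1.90 ± 0.809 and 1.63 ± 0.674 (SD, n = 4).

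The intracellular FGFs are relatives of the ligands that are not secreted and are known to bind sodium channels. *Fgf11* was at 10.4, 9.21, 8.70 and 7.88 in control and at 11.6, 14.9, 11.3 and 12.6 in mutant libraries. The groups did not overlap, and the log2 fold change was 0.43 (SE 0.11, adjusted p = 0.102). *Fgf13*, the most abundant of this class, was at 30.7 ± 6.93 in control and 29.8 ± 6.54 in mutant samples (SD, n = 4), and its log2 fold change was -0.04 with a 95% interval of -0.44 to 0.35. It was -0.25 with the enamel covariate (adjusted p = 0.405) and -0.51 with the epithelium covariate (adjusted p = 0.349). *Fgf12* and *Fgf14* had values of 0.660 to 3.47 in all libraries and unadjusted p-values above 0.05.

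The other 9 ligand genes, *Fgf4*, *Fgf7*, *Fgf8*, *Fgf15*, *Fgf17*, *Fgf18*, *Fgf21*, *Fgf22* and *Fgf23*, failed the filter on low values, with at most 72 estimated reads in any library. *Fgf23*, which encodes a hormone that lowers blood phosphate and is made mainly by osteocytes, was counted at an estimated 2 to 5 reads per control library and 4 to 16 per mutant library. Its control values lie at or near the limit of 3 reads, so the groups cannot be compared at this depth. *Fgf3*, *Fgf4* and *Fgf15* are neighbors on chromosome 7, starting at 144838083, 144847367 and 144896531. Of these genes, *Fgf3* had 369 to 1992 estimated reads per library, while *Fgf15* had 4 to 26. *Fgf18*, a ligand of skeletal growth, was at 8 to 20 reads per control library and 13 to 19 per mutant library, and *Fgf21*, a metabolic hormone, had 3 to 12 and 0 to 10.

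Of the 5 receptor genes, *Fgfr3* passed the adjusted test, while *Fgfr4* had a similar log2 fold change and did not. *Fgfr3* (chr5:33721674-33737068, plus strand, GRCm38), a receptor known as a brake on cartilage growth, was at 79.7, 68.8, 54.7 and 59.8 in the controls. In the mutant libraries it was at 91.0, 144, 126 and 135. Mutant 1 lay closest to the controls, and the groups did not overlap. The mean rose from 65.8 ± 10.9 to 124 ± 23.1 (SD, n = 4 each), and their ratio was 1.89. The log2 fold change was 0.90 (SE 0.16, 95% interval 0.55 to 1.25) with an adjusted p of 0.0202, and all 4 mutant libraries were higher. The call depends on single libraries: leaving out any 1 of the 8 gave log2 fold changes of 0.82 to 1.04 and adjusted p-values of 0.00734 to 0.0745, and the call was kept in 2 of 8 fits, those without control 1 or mutant 1. In these fits 108 to 292 of all genes were called higher, against 232 with all libraries. The *Fgfr3* call was lost with the epithelium markers as a covariate (log2 fold change 0.45, adjusted p = 0.298), when 16 of all genes were called higher. It was kept with the enamel genes (0.79, adjusted p = 0.0379), when 216 were. Without control 3, control 4 and mutant 3 together the log2 fold change was 0.70, with an adjusted p of 0.453, and 1 of all 14435 genes was called higher.

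*Fgfr4*, a receptor of skeletal muscle precursors and liver, was at 1.48, 0.939, 1.01 and 0.673 in control and at 1.69, 3.66, 2.21 and 4.00 in mutant libraries. These amount to 43 to 84 reads per control library and 88 to 309 per mutant library, and the groups did not overlap. The ratio of means was 2.82 and the log2 fold change was 0.91 (SE 0.21, adjusted p = 0.0678). Mutant 2 and mutant 4 had the highest values of both *Fgfr3* and *Fgfr4*. Cartilage markers, a list chosen after values were seen, varied among the same libraries. *Col2a1*, the collagen of cartilage, was at 8.76, 13.5, 8.77 and 7.74 in control and at 16.7, 35.9, 22.4 and 33.3 in mutant libraries. *Acan*, the large cartilage proteoglycan, was at 2.94, 2.17, 2.01 and 3.58 and at 6.35, 16.9, 9.97 and 13.5. *Acan*, *Col2a1*, *Col9a1* and *Col9a2* were higher in every mutant library than in any control, while *Col11a1*, *Comp* and *Hapln1* overlapped. Mutant 2 was highest for all 7 genes, whereas mutant 4 came next for *Acan*, *Col2a1*, *Col9a2* and *Hapln1* and not for the other 3. The summed value of 7 cartilage markers was 843 to 1162 in control and 976 to 1702 in mutant samples (exact two-sided permutation p = 0.114). The summed value of 6 muscle markers was 8.55 to 49.99 in control and 3.03 to 13.2 in mutant samples. The part of cartilage or muscle in the *Fgfr3* and *Fgfr4* values was not tested.

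The values of the 2 most abundant receptors overlapped between the groups. *Fgfr1* was at 986, 1068, 980 and 940 in control and at 1050, 986, 1218 and 935 in mutant libraries, with a log2 fold change of 0.07 and a 95% interval of -0.16 to 0.30. *Fgfr2*, the main receptor for FGF3 and FGF10 in epithelium, was at 138, 188, 193 and 217 in control and at 214, 154, 236 and 158 in mutant libraries. Its log2 fold change was 0.04 with a 95% interval of -0.35 to 0.43, and it depended on the model, at 0.26 with the enamel covariate (adjusted p = 0.328) and 0.48 with the epithelium covariate (adjusted p = 0.394). *Fgfrl1*, a receptor without a kinase domain, was at 21.4 ± 1.52 and 24.1 ± 2.86 (SD, n = 4), with a log2 fold change of 0.16 (adjusted p = 0.584).

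Flrt and FGF binding protein genes encode partners of the receptors and carriers of the ligands. *Flrt3* (chr2:140650914-140671469, minus strand, GRCm38), a membrane protein that binds FGF receptors, was at 40.1, 37.0, 32.1 and 44.4 in control and at 48.4, 52.4, 65.1 and 62.0 in mutant libraries. All 4 mutant libraries were above all 4 control libraries. The log2 fold change was 0.56 (SE 0.12), and the adjusted p of 0.055 was just above the threshold. *Fgfbp3*, which releases FGFs from heparan sulfate, was at 7.02, 6.25, 5.36 and 5.99 in control and at 9.48, 9.42, 7.75 and 7.56 in mutant libraries. Its groups did not overlap either, with a log2 fold change of 0.42 (SE 0.11, adjusted p = 0.109). *Fgfbp1*, a carrier made by epithelium, went the other way at a very low level, with 11 to 37 reads per control library and 5 to 10 per mutant library. Its normalized values were 0.369 ± 0.171 and 0.141 ± 0.0402 (SD, n = 4), they did not overlap, and the adjusted p without the filter was 0.21. Without the filter 7 of the 43 members, *Fgf23* near the limit of detection included, had higher values with no overlap and 4 had lower ones, against 5.55% and 2.65% of all 20926 genes, and 8.2% in either direction. *Flrt1* and *Flrt2* overlapped, with log2 fold changes of 0.26 and -0.20, and *Kl*, the coreceptor of FGF23, had 4 to 22 estimated reads.

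The adaptor genes *Frs2* and *Frs3*, whose proteins link the receptors to Ras, overlapped between the groups. *Frs2* was at 73.4 ± 3.87 in control and 78.2 ± 15.1 in mutant samples (SD, n = 4), where mutant 3 alone was at 101 and the other 3 at 69.1 to 73.0. Its log2 fold change was 0.07 (SE 0.12), and that of *Frs3* was 0.18.

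Of the 8 tested feedback inhibitor genes, 5 were lower at an unadjusted p under 0.05, against 4.87% of all genes, and none passed the adjusted test. With the epithelium covariate *Il17rd* alone of these 5 kept an unadjusted p under 0.05. *Spry1*, a Sprouty gene, was at 24.1, 26.6, 29.9 and 24.2 in control and at 21.6, 15.3, 11.7 and 17.0 in mutant libraries. Its groups did not overlap, the ratio of means was 0.627, and the log2 fold change was -0.67 (SE 0.16, adjusted p = 0.0765). *Spry4* was at 10.7, 10.9, 14.6 and 10.4 in control and at 8.26, 7.60, 4.38 and 7.41 in mutant libraries. These groups did not overlap either, and the log2 fold change was -0.69 (SE 0.18, adjusted p = 0.0971). *Spry2* was at 12.3, 14.6, 15.5 and 13.7 in control and at 13.9, 9.46, 8.6 and 11.9 in mutant libraries. Mutant 1 lay among the controls, and the log2 fold change was -0.35 (SE 0.14, adjusted p = 0.335).

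*Dusp6*, the ERK phosphatase, was at 56.5, 64.6, 68.6 and 56.0 in control and at 56.9, 42.7, 33.7 and 43.0 in mutant libraries. Again only mutant 1 reached the control range. The log2 fold change was -0.49 (SE 0.14), with an adjusted p of 0.144 and an exact two-sided permutation p of 0.0857. *Il17rd*, also known as Sef, which blocks the pathway at the membrane, was at 57.5, 65.0, 62.3 and 52.9 in control and at 52.5, 54.7, 46.9 and 46.5 in mutant libraries. The groups overlapped by a narrow margin, and the log2 fold change was -0.24 (SE 0.09, adjusted p = 0.255).

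The Spred genes, whose proteins suppress Raf activation, had intervals that include 0. *Spred1* was at 115 ± 1.04 in control and 114 ± 7.94 in mutant samples (SD, n = 4), and its log2 fold change was -0.02 with a 95% interval of -0.17 to 0.12. The interval was -0.29 to 0.08 for *Spred2* and -0.13 to 0.43 for *Spred3*. Over the 8 inhibitor genes the median log2 fold change was -0.29.

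The 3 ETS factor genes, which are targets of ERK and carry its signal into transcription, were all lower at an unadjusted p under 0.05, against 4.87% of all genes, and none passed the adjusted test. With the epithelium covariate *Etv1* alone kept an unadjusted p under 0.05. *Etv4* was at 37.1, 45.2, 45.3 and 35.8 in control and at 34.4, 21.9, 17.0 and 23.5 in mutant libraries. Mutant 1 lay just below the lowest control library, and the groups did not overlap. The mean was 40.8 ± 5.10 in control and 24.2 ± 7.33 in mutant samples (SD, n = 4), with a log2 fold change of -0.77 (SE 0.18, adjusted p = 0.0773). *Etv5* was at 62.4, 62.6, 60.2 and 57.5 in control and at 59.6, 53.0, 38.4 and 50.7 in mutant libraries. Its log2 fold change was -0.28 (SE 0.12, adjusted p = 0.35), with mutant 1 within the control range. *Etv1* was at 17.9, 19.4, 17.0 and 13.2 in control and at 13.1, 14.0, 11.5 and 14.9 in mutant libraries, which overlap through control 4, and the log2 fold change was -0.31 (SE 0.13, adjusted p = 0.334).

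Mutant 3 had the lowest value of all 8 libraries for each of *Fgf3*, *Fgf10*, *Spry1*, *Spry2*, *Spry4*, *Dusp6*, *Etv4* and *Etv5*, and it is also the mutant library with the high ameloblast sum. Control 3, with a larger ameloblast sum (15826, against 11512), had the highest value of all libraries for *Spry1*, *Spry2*, *Spry4*, *Dusp6* and *Etv4*. With the enamel covariate the log2 fold changes were -0.74 for *Spry1*, -0.37 for *Spry2*, -0.78 for *Spry4*, -0.55 for *Dusp6*, -0.85 for *Etv4* and -0.39 for *Etv5*, each further from 0 than without it. Among the mutant libraries, mutant 1 was the nearest to the controls for *Fgfr3*, *Spry1*, *Spry2*, *Dusp6*, *Etv4* and *Etv5*. Without mutant 1, 3 members were called higher and 3 lower at an adjusted p under 0.05, when 292 and 92 of all 14739 genes were called. With the epithelium markers as a covariate 5 rather than 9 members were lower, and 4 rather than 6 higher, at an unadjusted p under 0.05, when 701 of all 14854 genes were lower and 1052 higher. These are partly different members: *Fgf10* and *Fgf13* were newly among the lower ones beside *Fgf3*, *Il17rd* and *Etv1*, and *Fgfr2* and *Frs3* (0.41) among the higher ones beside *Fgfr3* and *Flrt3*. In that fit the log2 fold changes of the inhibitor and ETS factor genes were -0.30 for *Il17rd*, -0.53 for *Etv1*, -0.11 for *Spry2*, -0.30 for *Etv5*, -0.34 for *Dusp6*, -0.48 for *Spry1*, -0.58 for *Spry4* and -0.58 for *Etv4*. Among the higher genes they were 0.17 for *Fgf11*, 0.18 for *Fgf2*, 0.27 for *Fgfbp3*, 0.45 for *Fgfr3*, 0.45 for *Fgfr4* and 0.51 for *Flrt3*, so *Spry2*, *Fgf11*, *Fgf2*, *Fgfbp3*, *Fgfr3* and *Fgfr4* each moved toward 0 by over 1.5 times.

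**Figure D4:**
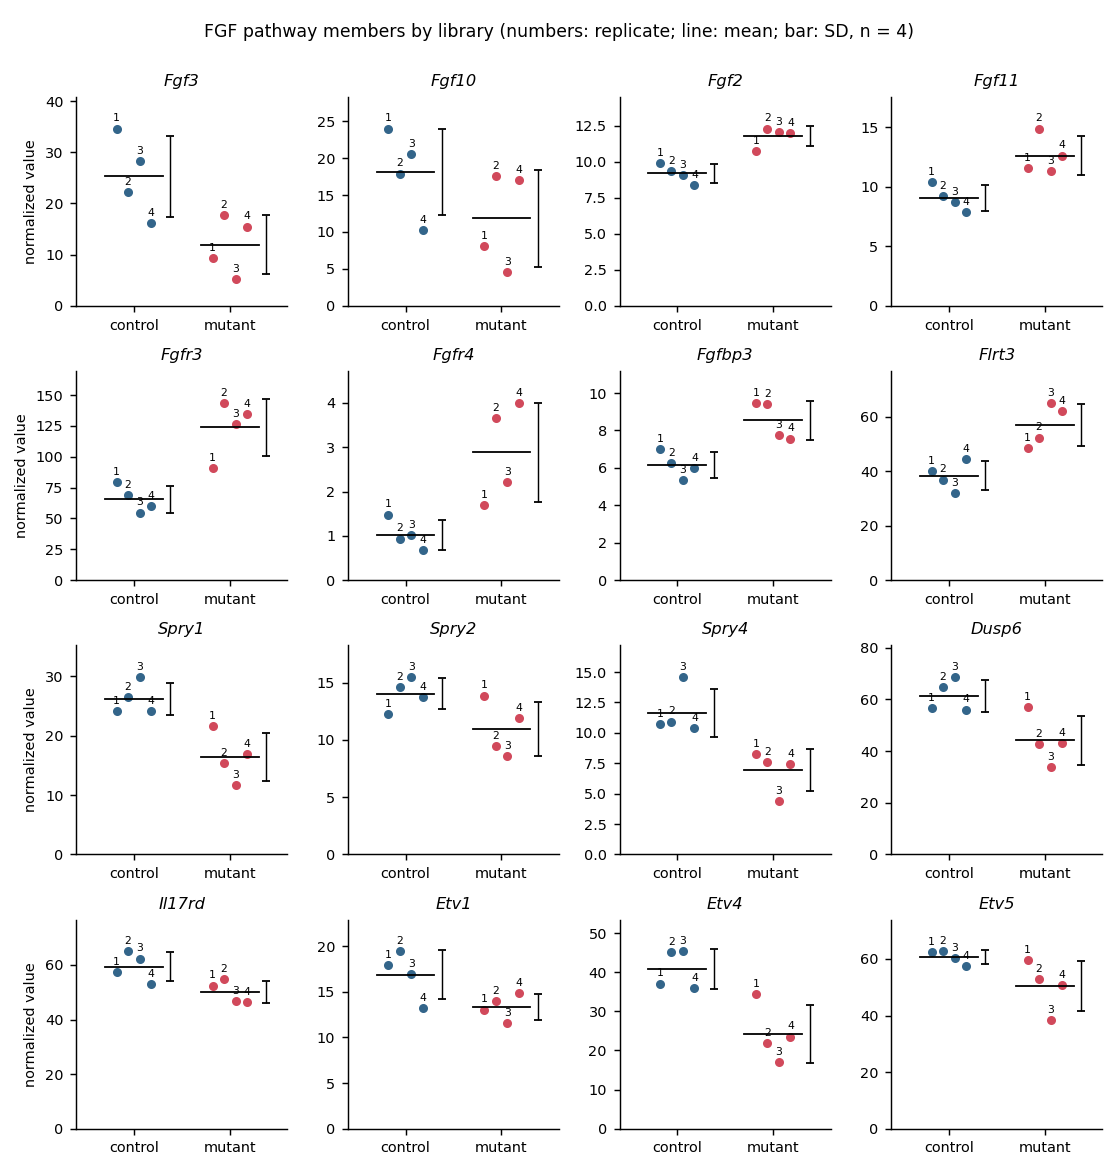
Normalized values in each control and mutant library, with replicate numbers, the mean and SD (n = 4), for the 15 members with an unadjusted p under 0.05 and *Fgf10*. Control and mutant points are apart, with mutant higher, for *Fgf2*, *Fgf11*, *Fgfr3*, *Fgfr4*, *Fgfbp3* and *Flrt3* and, with mutant lower, for *Spry1*, *Spry4* and *Etv4*, while those of the other 7 genes overlap.

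Genes outside the family that respond to ERK were examined beside it. Of 17 tested ERK response genes 8 were lower and 0 were higher at an unadjusted p under 0.05 (47.1%, against 4.87% of all genes), 1 was lower at an adjusted p under 0.05, and the median log2 fold change was -0.26. With the epithelium markers as a covariate 2 of the 17 were lower at an unadjusted p under 0.05, and the median was -0.13. *Egr1*, an immediate early transcription factor gene, fell from 19.5, 27.0, 22.9 and 18.9 in control to 12.9, 12.5, 10.2 and 11.1 in mutant libraries. The groups did not overlap, and the log2 fold change was -0.86 (SE 0.13, adjusted p = 0.00905). The call of *Egr1* was kept when any 1 library was left out, with adjusted p-values of 0.0155 to 0.0434, and lost with the epithelium markers as a covariate (-0.88, adjusted p = 0.15). It was also lost without control 3, control 4 and mutant 3 together, when 0 of all 14435 genes were called lower. *Egr3* was lower in all 4 mutant libraries with a log2 fold change of -0.56, and its adjusted p of 0.0502 was just above the threshold. *Junb*, *Fos*, *Ier2*, *Dusp2*, *Phlda1* and *Plaur* had log2 fold changes of -0.26 to -0.68 at an unadjusted p under 0.05. *Myc*, at -0.07, and *Ccnd1*, a cyclin gene at 0.00, were not among them.

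**Figure D5:**
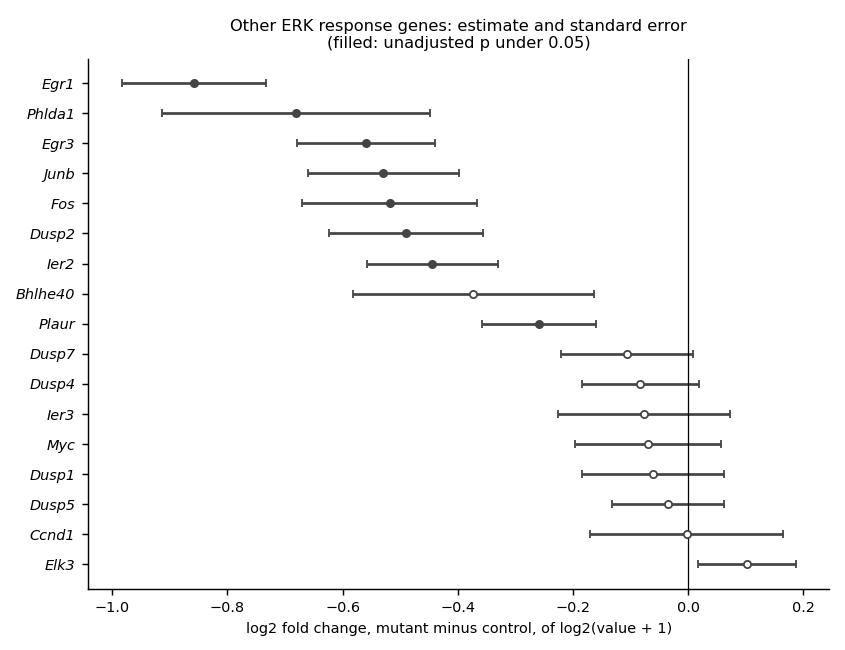
Log2 fold change (mutant minus control, of log2(value + 1)) with its standard error for 17 ERK response genes outside the family, where filled points have an unadjusted p under 0.05. *Egr1* is lowest at -0.86, and only *Elk3*, at 0.10, has a positive estimate.

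Of 25 tested genes of the Ras-ERK cascade, which joins the receptors to ERK, 1 was higher at an unadjusted p under 0.05 (4%, against 8.27% of all genes), *Araf* with a log2 fold change of 0.19 and an adjusted p of 0.374, and 1 was lower, *Mapk3*, which encodes ERK1, at -0.18 and 0.229 (4%, against 4.87%). The median log2 fold change was -0.05. Heparan sulfate is the sugar chain that FGFs need to bind their receptors. Of 17 genes whose proteins build, trim or carry this chain, 4 were higher and 0 were lower at an unadjusted p under 0.05 (23.5%, against 8.27% of all genes), with a median of 0.13. *Hs6st2*, a sulfotransferase gene, rose from 22.8, 20.3, 17.6 and 20.3 in control to 25.1, 34.7, 29.4 and 34.8 in mutant libraries. All 4 mutant libraries were higher, and the log2 fold change was 0.58 (SE 0.12, adjusted p = 0.0433). The glypican genes *Gpc3* and *Gpc6*, at 0.40 and 0.44, and the sulfatase gene *Sulf1*, at 0.21, did not pass the adjusted test. With the epithelium covariate 3 of the 17 were higher and 1 was lower at an unadjusted p under 0.05, against 1052 and 701 of all 14854 genes. With the enamel covariate 6 were higher and 2 lower, against 1234 and 907. The call of *Hs6st2* was kept without control 1 or mutant 1 and lost without any other single library, with adjusted p-values of 0.0181 to 0.16 over the 8 fits. It was also lost under median-of-ratios scaling (0.0668) and quantile scaling (0.0549), with the enamel covariate (0.0843) and with the epithelium covariate (0.429). Leaving out control 3, control 4 and mutant 3 together lost it as well, when 1 of all 14435 genes was called higher.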

How the data were processed

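RNA-seq values of molar mesenchyme were analysed in 8 libraries (4 control, 4 *Osr2KI-Cre;Ezh2fl/fl*), grouped by the sample labels, and 0 other columns of per-sample values were present. The paper's methods speak of 3 pairs of samples, fewer than the 4 libraries per group used here, without naming them. The submitters' processing notes name CASAVA 1.8.2, STAR 2.5.3a, Partek and mm10, whereas the paper's methods name TopHat and RPKM. The values as deposited were handled as a signal, neither RPKM nor counts. They carry no length factor, are never 0, share their 75th percentile, and 61.2% of those under 20 times a library's smallest value came out as its whole multiples, within 0.01 read. Reads were estimated by dividing each value by the smallest one in that library and subtracting 1, and carry counting error only.

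Differences were tested with limma 3.58.1 in R 4.3.3 (mean-variance trend) on log2(value + 1) over genes that reached 1 in 4 or more libraries, adjusted by Benjamini-Hochberg over all 14854. Fold changes are on that scale and understate low genes. Single genes were also given two-sided exact permutation tests over 70 arrangements, whose smallest p is 0.0286. Exon lengths and coordinates are from GENCODE mouse release M21 (GRCm38, the build of mm10), where 37 of 43 members share chromosome and start with the table. Promoters are from RefSeq.

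Members and lists were chosen with earlier results of these data known. Named were members with p under 0.05 or groups apart, the highest per kilobase in each role, and 8 genes known in teeth. Of other lists, genes with an adjusted p under 0.05 or the lowest p were named, and further ones after their values were seen. Alternatives were pseudocounts of 0.1 and 5, no filter, median-of-ratios and quantile scaling, robust moderation, a replicate block, an enamel gene covariate and leaving out each library. Leaving out 3 libraries together, the epithelium covariate and the cartilage list were added after the data were seen.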

Additional observations from a re-analysis of the deposited data

Results flagged for a closer look

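In 4 of 86 groups of 4 libraries examined, 1 library lay far from the others by Dixon's criterion, and chance alone gives about 4.3. *Fgf4* was at 0.292 (16 estimated reads) in control 3 and at 0.0134 to 0.0174 in the other controls. *Frs2* was at 101 in mutant 3 and at 69.1 to 73.0 in the other mutant libraries. *Kl* was at 0.269 (18 estimated reads) in mutant 3, with the others at 0.152 to 0.171. *Spry4* was at 14.6 in control 3 and at 10.4 to 10.9 in the other controls.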

How the results depend on the processing

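Of 574 recomputed fold changes of single members, 535 kept their direction and side of the threshold, 24 changed sign, 9 lost the call (all *Fgfr3*) and 6 gained one (*Fgf3* with the enamel covariate, and *Dusp6*, *Etv4*, *Fgfr4*, *Flrt3* and *Spry1* without mutant 1). Pseudocounts, the filter, both rescalings and robust moderation moved no count of members by more than 1.5 times. With the replicate block, members called higher went from 1 to 0 (*Fgfr3*, adjusted p = 0.0972) and other pathway genes called from 2 to 0, with 64 higher and 9 lower calls over all genes in place of 232 and 76. The same-numbered libraries deviated with correlations of -0.34, -0.08, 0.22 and -0.43, and 1 of 4 controls correlated best with its own number, so the numbers were not taken as pairs.

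With the enamel covariate 1 member was called higher and 1 lower (216 and 86 over all genes), 10 were higher and 11 lower at an unadjusted p under 0.05 (1234 and 907 over all genes), 1 other pathway gene was called, and *Fgf9* changed sign to 0.0724. With control 3, control 4 and mutant 3 left out, 0 members and 0 other pathway genes were called, 9 of 30 members were lower without overlap (1342 of 14435 over all genes), and *Fgfr1* (-0.0524), *Frs2* (-0.0566), *Spred1* (0.0090) and *Spred3* (-0.068) changed sign, while over all genes 1 was called higher and 0 lower. With the epithelium covariate 0 members and 0 other pathway genes were called, 5 members were lower at an unadjusted p under 0.05, *Fgf1* (0.14), *Fgf9* (0.44), *Fgfrl1* (-0.0222) and *Spred1* (0.0136) changed sign, and 16 and 5 genes were called over the whole table.

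Leaving out 1 library at a time gave 0 to 3 members called higher and 0 to 3 called lower, 6 to 7 higher and 5 to 9 lower at an unadjusted p under 0.05 (811 to 1361 and 459 to 945 over all genes), 6 to 7 higher and 3 to 9 lower without overlap (905 to 1294 and 471 to 832 over all genes), and 1 to 4 other pathway genes called. The highest counts of calls were without mutant 1, and the 9 without overlap were without control 4 (579 of 14777 over all genes). Log2 fold changes then spanned 0 for *Fgf13* (-0.17 to 0.10), *Fgf16* (-0.11 to 0.26), *Fgf9* (-0.32 to 0.0361), *Fgfr1* (-0.0044 to 0.12), *Fgfr2* (-0.0906 to 0.14), *Frs2* (-0.054 to 0.13) and *Spred1* (-0.0663 to 0.00261). Over all genes the split at an unadjusted p under 0.05 was 1229 higher and 724 lower, against 1011 and 919 with median-of-ratios scaling. The cause of these changes was not tested. Counts of groups without overlap have no value under a block or covariate. At these depths genes near 3 reads cannot be compared.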

Other observations

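As a share of the summed level per kilobase of *Fgfr1* to *Fgfr4*, *Fgfr3* made up 8.93%, 7.05%, 6.08% and 6.70% in control and 9.06%, 14.8%, 10.7% and 14.5% in mutant libraries. Mutant 1 was barely above the highest control. *Fgfr1* made up 78.6% ± 1.64 in control and 74.3% ± 1.34 in mutant samples, and *Fgfr2* 14.0% ± 2.60 and 12.8% ± 1.79 (SD, n = 4). The shares rest on exon lengths that join all annotated isoforms, and no test was run on them.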
